A study of Mus musculus with 3 samples.

Results

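The anterior neural plate patterning factors are 9 transcription factors, *Otx2*, *Six3*, *Hesx1*, *Zic1*, *Zic2*, *Pax6*, *En1*, *Gbx2*, and *Irx3*, taken by symbol from the expression table of the mouse embryo at the early headfold (EHF) stage. All 9 were found among the 30854 gene symbols of that table. The choice of the 9 used no measured value of this table, although earlier results of the same data were known when it was made. The samples were 3 embryonic regions of wild-type EHF embryos, separated from the extraembryonic region at their junction, with no mutation, transgene, or treatment named. Each was hybridized as biotin-labelled RNA to an Illumina Mouse-6 array, on which a gene is read by 1 or more probes, each carried on many beads. The strain is labelled Cd-1 and the RNA extraction a column kit, while the study's methods name wild-type ICR mice and TRIzol. Neither says whether an array holds a single embryo or a pool, so the spread over the 3 arrays may be technical. These 3 arrays form a single group, so the only comparison that can be made for each factor is that of its signal with the background of the same array.

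The neural plate is the sheet of anterior ectoderm that gives rise to the brain, and it is divided along the head-to-tail axis before any neuron forms. *Six3* and *Hesx1* mark its most anterior part, the future forebrain, *Otx2* covers the future forebrain and midbrain, and *Gbx2* lies behind it in the future hindbrain, with the border between *Otx2* and *Gbx2* setting the site of the midbrain-hindbrain organizer. *En1* is switched on around that border, *Irx3* lies caudal to *Six3*, *Pax6* marks the forebrain, eye, and hindbrain, and *Zic1* and *Zic2* are zinc finger factors of the neural plate and its edges. Several of these genes are not limited to the neural plate. *Otx2* and *Hesx1* are also known from the anterior endoderm, and *Gbx2* from posterior tissue beside the primitive streak. In RNA of a whole embryonic region, fewer cells of a type and less RNA per cell cannot be told apart, and the tissue that a transcript came from is not resolved.

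Of the 9 factors, *Otx2*, *Gbx2*, and *Irx3* were above background on every array. The stretches before their start sites are printed because these 3 genes carry the positive result. They are the 250 bases before the most upstream start of each gene in RefSeq on GRCm38.p6, written 5′ to 3′ on the strand of the gene. Capitals mark TAATTA, the core bound by many, though not all, homeodomain proteins.
Otx2 promoter, chr14:48667645-48667894 (- strand): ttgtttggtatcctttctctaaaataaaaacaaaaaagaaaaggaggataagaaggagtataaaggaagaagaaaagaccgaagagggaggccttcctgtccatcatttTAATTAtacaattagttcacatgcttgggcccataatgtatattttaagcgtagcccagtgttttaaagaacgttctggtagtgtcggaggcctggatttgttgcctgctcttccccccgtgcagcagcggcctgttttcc
Gbx2 promoter, chr1:89931177-89931426 (- strand): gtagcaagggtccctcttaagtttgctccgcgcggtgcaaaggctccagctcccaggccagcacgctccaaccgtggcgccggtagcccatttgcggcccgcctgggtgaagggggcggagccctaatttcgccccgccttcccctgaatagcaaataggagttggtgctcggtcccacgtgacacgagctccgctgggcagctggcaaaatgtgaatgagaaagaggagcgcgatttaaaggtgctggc
Irx3 promoter, chr8:91801655-91801904 (- strand): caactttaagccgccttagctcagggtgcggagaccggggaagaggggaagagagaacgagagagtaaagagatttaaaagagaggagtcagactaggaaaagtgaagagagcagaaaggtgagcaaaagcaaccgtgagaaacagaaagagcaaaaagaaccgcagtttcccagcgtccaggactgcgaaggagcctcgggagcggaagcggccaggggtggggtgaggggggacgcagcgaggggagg
TAATTA, which reads the same on both strands, was present once in the *Otx2* stretch and in neither of the others. It was found in 1 of the 8 factors with a promoter entry, against 4.91% of 27025 mouse promoters of the same length. TAATCC, the core preferred by OTX2, was searched on both strands, was found in 0 of the 8, and is held by 6.37% of all promoters. *Otx2* has 4 listed starts. The window before another of these, chr14:48665110-48665359 on the - strand, held TAATTA at 3 places and TAATCC at 1, the latter on the opposite strand. G and C made up 42% of the *Otx2* stretch, 61.6% of the *Gbx2* stretch, and 56% of the *Irx3* stretch, and the median of all promoters was 52%. A match of letters is a description of the sequence and not a binding site.

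The array reports each gene in 2 ways. The signal is the brightness averaged over the beads, and over the probes where a symbol has several, and it was deposited on the log2 scale without normalization between arrays. For a symbol with 1 probe, the detection p says what fraction of the array's negative-control probes were at least as bright. It then moved in steps of 1 in 936. For a symbol with several probes it is a combined value and not such a fraction. With 1 probe, a detection p of 0 therefore allows a share of up to 0.321% of control probes, counting error only. Calling a gene above background required that each of the 3 arrays gave it a detection p under 0.01. This was met by 3 of the 9 factors, and by 6357 of the 30854 symbols, 20.6% of the total. The background level of an array, the lowest signal at which a symbol with 1 probe passes that threshold, was 6.69, 6.66, and 6.58 on the deposited log2 scale on replicates 1, 2, and 3. Signals of different probes depend on the probe, so the genes are not ranked against each other by signal.

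*Otx2*, the homeobox gene required for forebrain and midbrain, gave deposited log2 signals of 9.70, 9.39, and 9.29 on replicates 1, 2, and 3. All 3 values stood more than 2 log2 units over the background level of their array, and no control probe was as bright on any of them. The mean was 9.46 ± 0.21 (SD, n = 3). The probe was carried on 46, 41, and 35 beads, and the standard error over beads was 0.075, 0.11, and 0.12 on the log2 scale, smaller than the SD between arrays.

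*Gbx2*, the homeobox gene of the anterior hindbrain that opposes *Otx2*, gave deposited log2 signals of 11.85, 11.42, and 10.98 on replicates 1, 2, and 3. The detection p was 0 on each array. The mean was 11.42 ± 0.43 (SD, n = 3), the widest spread between arrays among the 9 factors on this scale, which is not normalized. After the normalization described below, the SD of *Gbx2* was 0.15. That was under those of *Zic1* at 0.21, *Otx2* at 0.19, and *Hesx1* at 0.17. On the linear scale the deposited signals of *Gbx2* were 3681, 2742, and 2021 units. The standard error over its 37, 49, and 38 beads was 0.066, 0.081, and 0.097 on the log2 scale, which is the error of each array's mean and was smaller than the SD between arrays.

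*Irx3*, an Iroquois homeobox gene of the posterior forebrain, midbrain, and hindbrain, gave deposited log2 signals of 10.48, 10.32, and 9.99. Its detection p was also 0 on each array. The mean was 10.26 ± 0.25 (SD, n = 3), with a standard error over beads of 0.093, 0.079, and 0.099 on the log2 scale. For these 3 genes the lowest of the array values lay above the background level of every array, so signal and background did not overlap.

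**Figure D1:**
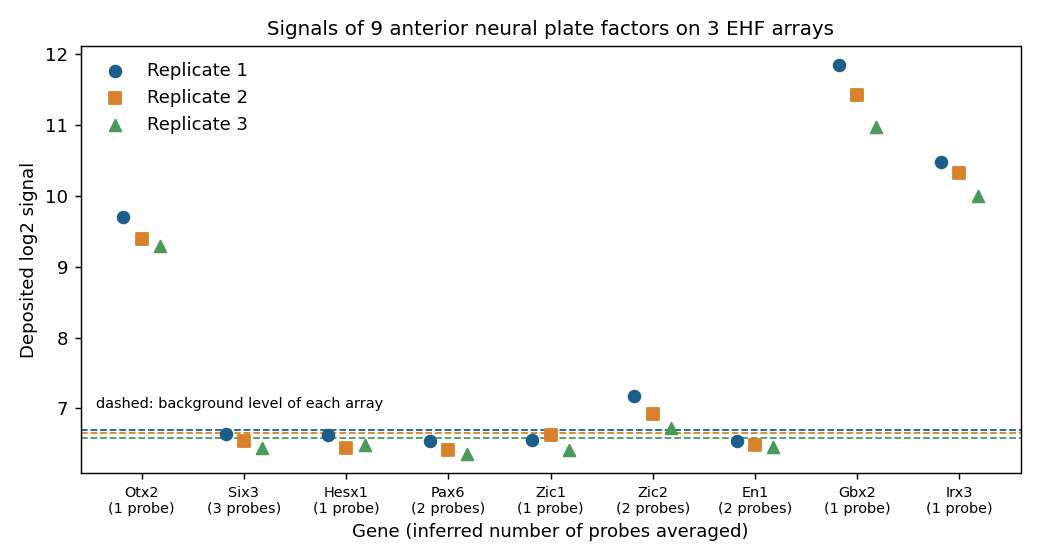
Deposited log2 signal (vertical axis) of the 9 factors on replicates 1 (blue circles), 2 (orange squares), and 3 (green triangles), with the background level of each array as a dashed line in the same colour and the inferred number of probes under each name. *Otx2*, *Gbx2*, and *Irx3* lie between 9.29 and 11.85, *Zic2* lies just over the line of each array, and each value of the other 5 factors lies under the line of its own array.

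To put an error on the height over background, signals were background-corrected, quantile normalized, and set against the background level of the same array on the log2 scale. *Otx2* was 4.57, 4.35, and 4.46 above background on replicates 1, 2, and 3, a mean of 4.46 ± 0.11 (SD, n = 3). *Gbx2* was 6.86, 6.46, and 6.25 above background, a mean of 6.52 ± 0.31 (SD, n = 3). *Irx3* was 5.43, 5.35, and 5.20 above background, a mean of 5.33 ± 0.12 (SD, n = 3). These are the heights of each gene over the array's background and not ratios between the genes. The background level subtracted was itself 4.68, 4.81, and 5.06 on replicates 1, 2, and 3. The SD and array order of every height given here therefore also carry that shift. Before subtraction, the SD of the normalized level was 0.19 for *Otx2*, 0.15 for *Gbx2*, and 0.08 for *Irx3*. The *Irx3* level then rose from replicate 1 to 3, at 10.11, 10.15, and 10.27. In a one-sided limma test across all 30854 symbols, 4 of the 9 factors were above background at an adjusted p under 0.05, among 7938 symbols or 25.7% of all tested. These 4 were *Otx2*, *Gbx2*, *Irx3*, and *Zic2*. The fit gave every gene the same standard error, 0.15, so its p-values treat that spread as known, and the largest adjusted p over the 9 alternatives is given instead. It was 0.000129 for *Otx2*, 0.000155 for *Gbx2*, and 0.000121 for *Irx3* by limma. The heights depended on the scale, from 2.81 to 5.08 for *Otx2*, from 4.76 to 7.14 for *Gbx2*, and from 3.61 to 5.95 for *Irx3*.

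*Zic2*, a zinc finger gene that is known for its role in forebrain midline formation and neural tube closure, gave different answers by the 2 readouts. Its deposited log2 signals were 7.17, 6.92, and 6.72 on replicates 1, 2, and 3, each above the background level of its array. Its detection p was 0.0163, 0.121, and 0.0534, so it met the threshold on none of them. *Zic2* has an inferred 2 probes, and for such symbols the deposited signal is an average and the detection p is a combined value. All symbols with 1 probe at or above the *Zic2* signal had a detection p of 0 on the same array. Since the brightest of its probes cannot lie under the average, at least 1 probe reached the *Zic2* signal on every array. When a mean signal at or above the background level on all 3 arrays was used in place of the detection p, 4 of the 9 factors were called, with *Zic2* as the addition, beside 26.3% of all symbols. Its normalized level was 1.13, 0.76, and 0.50 above background, a mean of 0.80 ± 0.32 (SD, n = 3). The largest adjusted p by limma over the alternatives was 0.0367. The range of its level over these alternatives, 0.28 to 1.42, stayed above background.

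*Zic1*, its close relative that marks the dorsal neural plate and neural plate border, was not above background. Its deposited log2 signals were 6.55, 6.62, and 6.41, with detection p of 0.247, 0.0192, and 0.339. Replicate 2 came nearest to the threshold, although its signal was still under that array's background level. Its normalized level was 0.38 under the background level on average (−0.38 ± 0.31, SD, n = 3).

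*Six3* and *Hesx1*, the forebrain homeobox genes, did not meet the threshold on all 3 arrays. *Six3* gave deposited log2 signals of 6.64, 6.53, and 6.45. Its detection p was 0.00704 on replicate 1, which met the threshold, and 0.265 and 0.309 on replicates 2 and 3, which did not. A rule that asks for detection on at least 1 array would add *Six3* as the fourth factor, and that rule is met by 33% of all symbols. *Six3* is averaged over an inferred 3 probes, and the values of its separate probes are not in the table used here. Its detection p is a combined value, so the pass on replicate 1 does not show that any single probe was under 0.01. *Hesx1*, which has 1 probe, gave deposited log2 signals of 6.62, 6.43, and 6.48 with detection p of 0.0598, 0.615, and 0.106. It met the threshold on none of the arrays. The normalized levels were −0.37 ± 0.25 for *Six3* and −0.41 ± 0.21 for *Hesx1* (SD, n = 3), both under the background level.

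*Pax6*, the paired-box gene of eye and forebrain, and *En1*, the homeobox gene of the midbrain-hindbrain region, were also not above background on any array. *Pax6* gave deposited log2 signals of 6.53, 6.41, and 6.36 with detection p of 0.350, 0.867, and 0.741. *En1* gave 6.54, 6.48, and 6.45 with detection p of 0.486, 0.313, and 0.0950. Each is averaged over an inferred 2 probes. The normalized levels were −0.59 ± 0.22 for *Pax6* and −0.48 ± 0.12 for *En1* (SD, n = 3). For *Six3*, *Hesx1*, *Zic1*, *Pax6*, and *En1* the arrays set only an upper bound, and none of the 5 had a signal above the background level on any array.

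**Figure D2:**
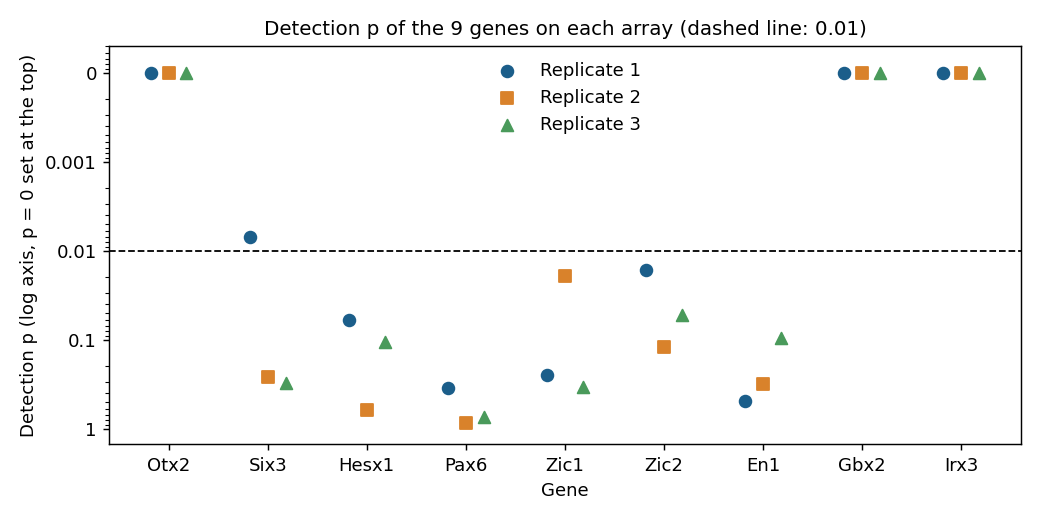
Detection p (vertical axis, log scale with 0 placed at the top) of the 9 factors on replicates 1 (blue circles), 2 (orange squares), and 3 (green triangles), with the threshold of 0.01 as a dashed line. *Otx2*, *Gbx2*, and *Irx3* sit at 0 on all 3 arrays, *Six3* passes the threshold on replicate 1 only, and the remaining 5 factors lie under the line on all 3 arrays.

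The 3 detected factors were next compared between the arrays. On the deposited scale all 3 were highest on replicate 1 and lowest on replicate 3, with a span from highest to lowest of 0.41 for *Otx2*, 0.86 for *Gbx2*, and 0.49 for *Irx3*. This order was shared by the array as a whole. Of the symbols above background, 84.9% were highest on replicate 1 and 93.4% were lowest on replicate 3, with a median span of 0.49 on the log2 scale. After normalization, *Otx2* differed from the mean of the other arrays by −0.08, −0.23, and 0.32 on replicates 1, 2, and 3 on the log2 scale. *Gbx2* differed by 0.25, −0.17, and −0.08, and *Irx3* by −0.10, −0.03, and 0.13. All of these lay within the 5 to 95% range of the symbols above background. With the deposited signals centred on each array's median, the values were 0.25, −0.12, and −0.14 for *Otx2*, 0.54, −0.01, and −0.53 for *Gbx2*, and 0.22, 0.07, and −0.29 for *Irx3*. Centring left a shift that the symbols above background shared, with medians of 0.22, 0.05, and −0.26 on replicates 1, 2, and 3, whereas after normalization these medians were −0.01, −0.01, and 0.03. Read against the median of the same scaling, *Gbx2* was higher on replicate 1 and lower on replicates 2 and 3 under both. *Otx2* was lower on replicate 2 and higher on replicate 3 under both, and its side turned with the scaling on replicate 1. *Irx3* kept no side against these medians, and its centred values lay within 0.05 of them. The sides depended on the symbols compared. For the 1413 symbols above background within 0.5 of the 3 factors in mean signal, the centred medians were 0.32, 0.10, and −0.40. After normalization their medians were −0.003, −0.002, and 0.02. Against these, *Otx2* and *Irx3* were lower on replicates 1 and 2 and higher on replicate 3 under both scalings. *Gbx2* kept the sides given above.

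**Figure D3:**
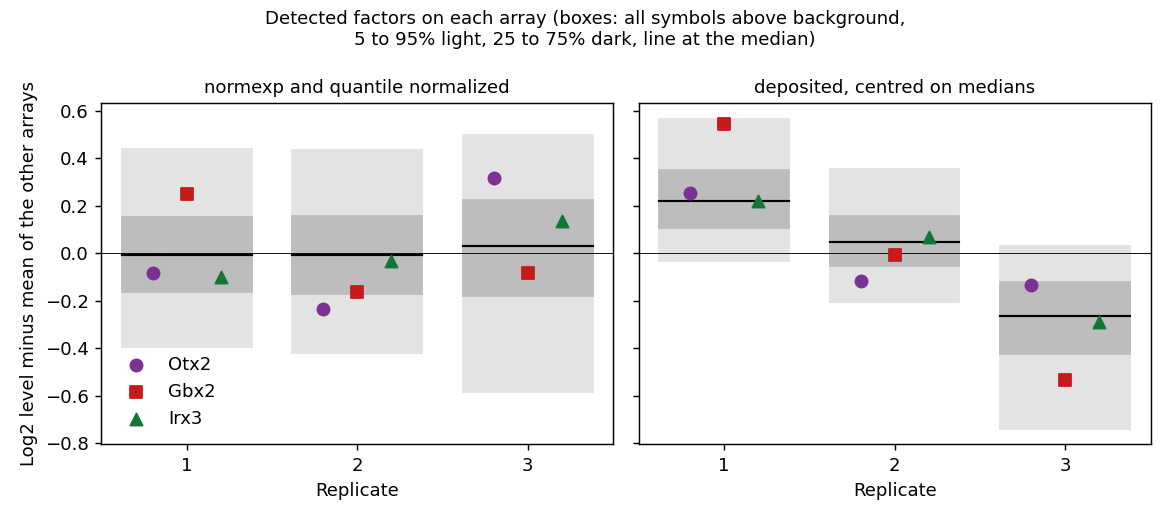
Log2 level of *Otx2* (purple circles), *Gbx2* (red squares), and *Irx3* (green triangles) on each replicate minus the mean of the other arrays, after normexp and quantile normalization (left) and for deposited signals centred on array medians (right). Light and dark boxes hold 5 to 95% and 25 to 75% of the 6357 symbols above background, with a line at their median, and all points lie inside the light boxes.

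Markers of other tissues were present and differed between arrays. All 12 listed genes of visceral endoderm were above background. This tissue is the outer epithelium whose cells are scattered among definitive endoderm in the embryonic region by this stage. The summed deposited signal of the 12 genes, linear and not normalized, was 15001, 16024, and 7642 on replicates 1, 2, and 3. On the deposited scale, 93.4% of all symbols above background were lowest on replicate 3. After normalization the median of the visceral endoderm list differed from the other arrays by −0.07, 0.56, and −0.24 on the log2 scale. The study proposes that the scattered cells turn down visceral endoderm markers. It found the marker *Apoc2* undetectable in the gut endoderm at headfold stages by in situ hybridization. Which cells the marker RNA on these arrays came from was not tested. Markers of mesoderm and primitive streak were above background for 9 of 12 genes, with *T* at 5.23 ± 0.49 above background, and of definitive endoderm for 6 of 8, with *Cldn6* at 6.44 ± 0.40 (log2, SD, n = 3). Of 11 markers of extraembryonic ectoderm, a tissue on the other side of the dissection, 4 were above background. These were *Cdx2*, *Rhox5*, *Ets2*, and *Tfap2c*, of which *Cdx2* is also known from the posterior embryo. *Hand1* passed the threshold on 2 of the 3 arrays, and *Sox21* and *Esrrb* on 1 each. *Elf5*, *Eomes*, *Gcm1*, and *Ascl2* passed on none. The part of these tissues in the differences of *Otx2*, *Gbx2*, and *Irx3* between arrays was not tested.

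Genes related to the 9 factors, or known from the same regions, were counted in lists that were chosen with earlier results of these data known. Across the 112 genes of the 9 lists that were measured and are not among the 9 factors, 39 were above background, 34.8%, beside 20.6% of all symbols. The lists share genes, and no test of the lists was made.

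Of the 24 paralogues of the factors, 3 were above background, 12.5%. Among them were *Irx5*, an Iroquois gene next to *Irx3* in the genome, at 3.26 ± 0.05 above background, and *Otx1*, the relative of *Otx2*, at 1.48 ± 0.09 (log2, SD, n = 3). None of the listed relatives of *Six3*, *Pax6*, *En1*, and *Gbx2* was called. *Irx2*, which has several probes, had a mean signal above background on all arrays without a call. *Six3*, *Pax6*, and *En1* therefore stood beside relatives that also had no call, while *Otx2* and *Irx3* each had a called relative. *Zic4* and *Zic5*, like *Zic1*, were not called.

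Of 14 forebrain genes, 4 were above background, 28.6%. They were *Foxd4*, a forkhead gene of the early neural plate, at 4.22 ± 0.09 above background, *Sp8*, a zinc finger gene of the anterior neural ridge, at 1.54 ± 0.13, *Otx1*, and *Fezf1*, a forebrain zinc finger gene, at 0.97 ± 0.79 (log2, SD, n = 3). *Fezf1* owed its spread to replicate 3, where it was 1.88 above background against 0.50 and 0.52 on the other arrays. *Rax*, *Lhx2*, *Emx2*, and *Nkx2-1*, which mark eye field, telencephalon, and hypothalamus, were not called, as was the case for *Six3*, *Hesx1*, and *Pax6*. *Lhx5*, an early forebrain LIM gene, passed the threshold on 2 of the 3 arrays.

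Of the 10 midbrain and isthmus genes on the array, 3 were above background, 30%. *Fgf8*, the signal of the midbrain-hindbrain organizer that is also made in the primitive streak, was 2.93 ± 0.25 above background. *Fgf17*, a relative with an overlapping pattern, was at 0.92 ± 0.26, and *Dmbx1*, a midbrain homeobox gene, at 0.07 ± 0.07 (log2, SD, n = 3), the latter called by its detection p while its mean signal lay at the background level. *En2*, *Pax2*, *Pax5*, *Pax8*, *Wnt1*, and *Lmx1b*, the other genes of this border, had no call, like *En1*.

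Of 12 hindbrain and posterior neural genes, 7 were above background, 58.3%. *Meis2*, a cofactor of Hox proteins, was 5.25 ± 0.20 above background. *Hoxb1*, the first Hox gene of the presumptive hindbrain, was at 3.47 ± 0.24, *Cdx1*, a caudal-type regulator of Hox genes, at 2.40 ± 0.17, and *Hoxb2* at 2.33 ± 0.21 (log2, SD, n = 3). *Nkx1-2* and *Hoxa2* were also called. *Gbx2* and *Irx3*, which reach into this region, were called as well, whereas *Egr2*, which marks hindbrain segments later on, was not. *Hox* and *Cdx* genes are also active in posterior mesoderm, and *T* and other streak genes were present in the same RNA.

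Of the 11 general neural plate genes on the array, 2 were above background, 18.2%. Of these, *Pou3f1*, a POU factor of early neural ectoderm, was at 1.54 ± 0.63 above background (log2, SD, n = 3). *Sox1* was called on no array. *Stmn2*, a growth cone gene at 2.51 ± 0.56, was the only called gene of 13 genes of later neurons, 7.69%.

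Of 12 genes of the neural plate border and surface ectoderm, 5 were above background, 41.7%. *Msx1*, a homeobox gene induced by BMP signals, was 4.36 ± 0.18 above background. *Bmp4*, the ligand itself, was at 2.85 ± 0.13, *Gata3* at 1.66 ± 0.39, and *Snai2*, a neural crest gene, at 1.07 ± 0.40 (log2, SD, n = 3), and *Dlx3* was also called. *Msx1* and *Bmp4* are known from mesoderm too. *Pax3*, *Pax7*, and *Foxd3*, which mark the border and neural crest, were not called, like *Zic1*.

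Proteins that act with the factors formed another list. Of the 13 corepressors and cofactors on the array, 7 were above background, 53.8%. *Ldb1*, the adaptor of LIM-homeodomain proteins, was 5.62 ± 0.38 above background, its partner *Ssbp3* was at 4.31 ± 0.23, the histone deacetylase *Hdac2* at 4.25 ± 0.57, and *Tle4*, a Groucho corepressor recruited by several homeodomain proteins, at 2.89 ± 0.36 (log2, SD, n = 3). *Pbx2*, *Aes*, and *Tle6* were the others. With a detection p under 0.001 on all 3 arrays the count fell from 7 to 4.

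Of 13 signals that induce or protect the anterior neural plate and their regulators, 9 were above background, 69.2%. *Sfrp1*, a secreted Wnt inhibitor, was 3.68 ± 0.35 above background. *Lhx1*, a regulator of the head organizer, was at 2.93 ± 0.25, *Shh*, the ligand of node and midline, at 2.19 ± 0.20, and *Chrd*, a BMP antagonist, at 2.03 ± 0.28 (log2, SD, n = 3). *Hhex*, *Gsc*, *Nog*, *Cer1*, and *Sfrp5* were the others. *Cer1* at 0.22 ± 0.38 and *Sfrp5* at 0.10 ± 0.08 (log2, SD, n = 3) were called by their detection p but not by limma, with adjusted p of 0.259 and 0.902. *Dkk1*, *Frzb*, *Lefty1*, and *Foxa2* were not called on all 3 arrays.

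**Figure D4:**
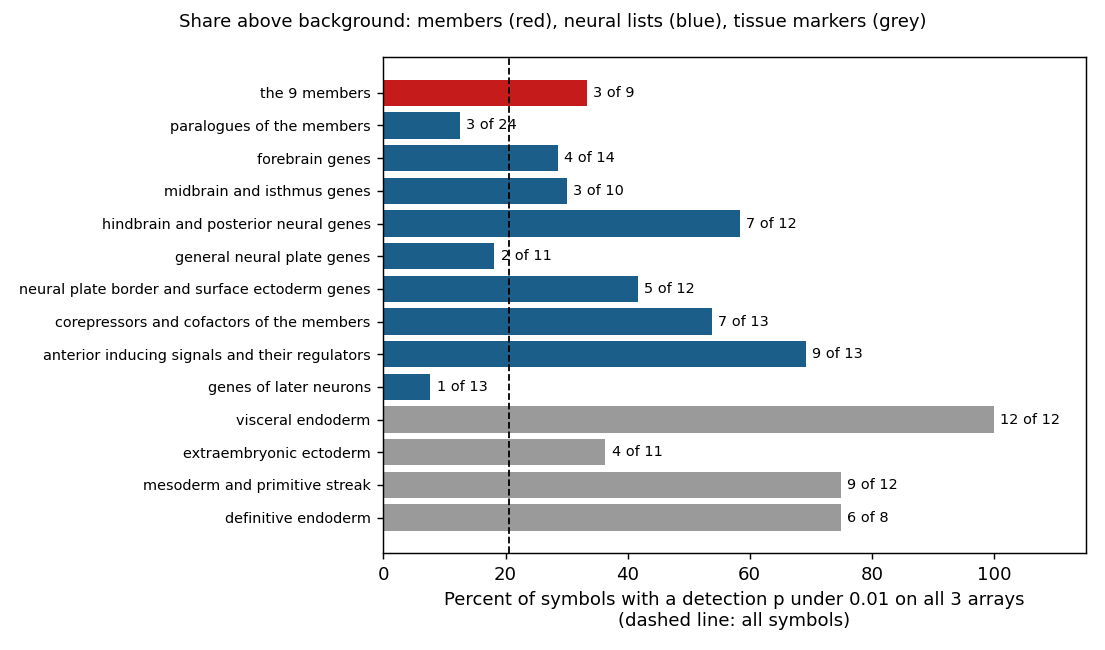
Percent of symbols with a detection p under 0.01 on all 3 arrays (horizontal axis) for the 9 factors (red), the 9 lists (blue), and markers of other tissues (grey), with the count beside each bar and the share of all symbols, 20.6%, as a dashed line. The paralogues, the general neural plate genes, and the genes of later neurons lie left of the line, and the other lists lie right of it.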

How the data were processed

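RNA of 3 wild-type EHF embryonic regions was hybridized to 3 Illumina Mouse-6 arrays, 1 group by the labels. Log2 signals were deposited by the authors, 1 row per gene symbol and not normalized between arrays, with mean bead numbers. They also deposited the standard error over beads as a linear intensity, which was converted here to the log2 scale. The detection p-value was deposited too. The submitters' processing notes name Partek. A legend of the study names a background cut-off for normalized levels. Whether background was subtracted from the deposited signals, and the annotation, are not given in the sources used here. Symbols had 9015, 8220, and 7191 detection p-values under 0.01 on replicates 1, 2, and 3, and array medians were 6.57, 6.51, and 6.42. The number of arrays limits the precision.

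The factors and the gene lists were chosen with earlier results of these data known. All 9 factors are named, and for each list called genes are named, with values for up to 4 of highest mean level, except that some listed genes are counted but not reported here by name. Symbols were matched through the RefSeq table of GRCm38.p6, and *Tfap2a*, *Tfap2c*, and *Epcam* were found under older names. Of the listed genes, 5 had no row in the table used here. Probes per symbol were inferred from mean bead numbers (tolerance 0.002) and is a lower limit. A symbol counted as having 1 probe, 21977 in all, where bead numbers were whole and its detection p lay on the 936 steps.

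Levels were computed with the normexp model from detection p-values (limma 3.58.1, R 4.3.3), an offset of 16, quantile normalization, and log2. The background level of the array, the lowest 1-probe level whose detection p passed 0.01 without being 0, was subtracted. It was 4.68, 4.81, and 5.06 on the normalized scale. The one-sided limma test (lmFit with an intercept, eBayes, Benjamini-Hochberg over 30854 symbols, threshold 0.05) rests only on variation between these arrays. With the levels described here, its standard error was the same for every symbol, 0.15, and not each gene's own. The limma step was tested on simulated data. Alternatives were other detection thresholds, other normalizations, an offset of 50, a lower background level, a filter, and leaving out each replicate. The mean signal rule was added after seeing the data. Python 3.11.15, numpy 2.4.6, pandas 2.3.3, and matplotlib 3.10.9 were also used.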

Additional observations from a re-analysis of the deposited data

How the results depend on the processing

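The calls of *Otx2*, *Gbx2*, and *Irx3* held in all 8 alternatives for detection, including a detection p under 0.05 or 0.001 and leaving out each replicate, which gave 3 factors each time. Detection on at least 1 array gave 4 by adding *Six3*, and the mean signal rule, chosen after seeing the data, gave 4 by adding *Zic2*. By limma 4 factors were called, and 5 with a background level set at the median of symbols with a detection p above 0.5, which is lower by construction. Under that level *Six3* was 0.25 above background (limma adjusted p = 0.0106), *Hesx1* 0.21 (0.0542), *Zic1* 0.24 (0.0588), *Pax6* 0.034 (0.321), and *En1* 0.14 (0.0619), where each had been under the background level. Of all symbols, 43.1% were called at that level. Among the listed genes, the count of 39 ranged from 30 to 58 over these alternatives, and from 39 to 44 without a replicate. With detection on at least 1 array, called genes rose from 3 to 5 among paralogues, from 2 to 8 among general neural plate genes, and from 1 to 3 among later neurons. The cause was not tested. No paired analysis was possible because all 3 arrays belong to the same group.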

Other observations

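A mean signal above background without a call was seen for more genes than *Zic2*. Of the genes in the 9 lists, 12 were above the background level by mean signal on all 3 arrays while their detection p was not under 0.01 on all of them. By the way the background level is set, a symbol with 1 probe cannot show this, and among all symbols without a call that were not classed as having 1 probe, 1844 of 7089 did. The 12 included *Irx2*, *Meis1*, *Sox2*, *Sox11*, *Sox21*, *Nes*, *Tfap2a*, *Tle1*, *Ncor1*, and *Pbx3*. *Sox11*, a neural progenitor gene averaged over an inferred 3 probes, gave deposited log2 signals of 10.49, 10.28, and 9.84 on replicates 1, 2, and 3. Its detection p was 0.124, 0.101, and 0.0566. *Sox2*, which marks the neural plate as a whole, gave deposited log2 signals of 7.07, 6.92, and 6.75 and passed the threshold on 2 of the 3 arrays. *Meis1*, a cofactor of Hox proteins, gave 7.97, 7.82, and 7.40 and also passed on 2. *Nes*, the intermediate filament of neural progenitors, gave 7.17, 6.89, and 6.68 and passed on 1. For these genes, as for *Zic2*, the deposited table holds an average over probes, and the probes behind it cannot be separated.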
